A study of Drosophila melanogaster with 3 samples.

Results

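The COPI coat genes are the 7 Drosophila melanogaster genes that encode the subunits of coatomer: alphaCOP, beta'COP, epsilonCOP, betaCOP, gammaCOP, deltaCOP and zetaCOP. They were taken from 13945 protein-coding genes on the 6 chromosome arms of the annotation (2 arms of each large autosome, 4 and X), and they were chosen by the binding peaks that lie inside each gene or within 1 kb of any of its transcription start sites (TSSs). Because those peaks chose the genes, their positions and signals are given as a description and were put to no test. The study mapped by ChIP-seq where Zif (CG10267), a DNA-binding protein of the zinc finger class, sits on chromatin. All 3 biological replicates belong to 1 group: whole embryos of both sexes, 0 to 24 h old, from a fly line that stably carries Zif with GFP at its C-terminal end. Chromatin was sonicated to 200 to 800 bp and precipitated through the GFP tag. The labels do not give the promoter that drives the transgene or whether the untagged protein was present, and no control library or second genotype was analysed here.

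Coatomer is the coat of COPI vesicles, which carry cargo backwards between Golgi cisternae and from the Golgi to the endoplasmic reticulum. The small GTPase Arf1 recruits the whole coat to the membrane, where alphaCOP, beta'COP and epsilonCOP form an outer cage and betaCOP, gammaCOP, deltaCOP and zetaCOP form an inner layer related to the clathrin adaptors. Every cell that secretes needs the coat, and in fly embryos COPI genes are known for their part in tracheal tube formation, where luminal proteins must be secreted in bulk.

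In the authors' final set, selected by the irreproducible discovery rate (IDR), 5 of the 7 COPI genes had a peak summit within 1 kb of a TSS, and over all protein-coding genes this was 44.6%. The alphaCOP promoter carried the 13th strongest of all 8630 summits, and epsilonCOP and deltaCOP also had strong peaks. The beta'COP and zetaCOP peaks were in the middle ranks of the set, while betaCOP and gammaCOP had none there and were found in only 2 of the 3 replicate lists each. The signal is the enrichment value that the authors' peak caller gave each peak. It grows with the strength of the peak, has no common scale between lists, and comes with no read count, so the depth of each replicate is unknown. In whole embryos, occupancy in few cells and weak occupancy in many cells cannot be told apart.

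The sequences around the COPI summits are shown because the summits they surround all lay in the untranscribed stretch just before each gene. Each is read 5′ to 3′ on the gene's own strand from the RefSeq Release 6 assembly (dm6). It covers up to 149 bases on either side of the summit and stops at the edge of any annotated protein-coding gene. Capitals mark letters that were searched for. These are the box TATAAA read by the TATA-binding protein, TATCGATA of the DNA replication-related element, the shorter CGATA read by BEAF-32, the run GAGAG read by Trithorax-like, the E-box CAGCTG, and CAACACT, a word described with the motif counts. The stretches lie at chr3L:1645200-1645466 (minus strand, alphaCOP), chr2L:13378586-13378884 (plus strand, beta'COP), chr2L:6488757-6489054 (plus strand, epsilonCOP), chrX:18385243-18385443 (minus strand, betaCOP), chr3R:31571770-31572068 (plus strand, gammaCOP), chrX:1861816-1862008 (minus strand, deltaCOP) and chr3L:16673556-16673736 (minus strand, zetaCOP). For betaCOP and gammaCOP, which have no IDR summit, the summit of replicate 2 was used.
alphaCOP: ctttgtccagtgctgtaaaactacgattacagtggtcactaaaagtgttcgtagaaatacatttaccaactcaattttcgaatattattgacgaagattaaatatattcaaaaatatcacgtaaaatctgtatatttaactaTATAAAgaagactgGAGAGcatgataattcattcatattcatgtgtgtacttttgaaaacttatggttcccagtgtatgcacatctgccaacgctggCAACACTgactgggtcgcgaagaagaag
beta'COP: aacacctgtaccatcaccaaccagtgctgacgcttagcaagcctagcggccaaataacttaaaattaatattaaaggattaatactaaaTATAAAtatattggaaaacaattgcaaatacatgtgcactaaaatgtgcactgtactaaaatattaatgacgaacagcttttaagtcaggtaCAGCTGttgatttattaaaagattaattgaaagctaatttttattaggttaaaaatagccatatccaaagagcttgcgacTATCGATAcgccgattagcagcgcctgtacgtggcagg
epsilonCOP: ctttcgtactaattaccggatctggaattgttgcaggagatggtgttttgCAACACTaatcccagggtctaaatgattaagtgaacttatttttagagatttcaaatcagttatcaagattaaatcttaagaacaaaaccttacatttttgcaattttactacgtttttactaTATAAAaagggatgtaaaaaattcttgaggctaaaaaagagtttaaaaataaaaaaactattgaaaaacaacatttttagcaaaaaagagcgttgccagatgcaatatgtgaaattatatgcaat
betaCOP: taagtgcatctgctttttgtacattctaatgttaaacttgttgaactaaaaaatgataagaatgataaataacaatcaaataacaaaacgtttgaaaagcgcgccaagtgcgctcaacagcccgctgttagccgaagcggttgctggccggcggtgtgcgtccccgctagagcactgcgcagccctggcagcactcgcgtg
gammaCOP: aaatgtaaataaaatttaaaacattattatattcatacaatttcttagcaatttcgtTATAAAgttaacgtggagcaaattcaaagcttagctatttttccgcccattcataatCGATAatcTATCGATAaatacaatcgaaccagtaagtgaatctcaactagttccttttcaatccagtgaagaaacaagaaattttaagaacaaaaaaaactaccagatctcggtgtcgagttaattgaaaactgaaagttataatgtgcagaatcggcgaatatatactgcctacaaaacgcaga
deltaCOP: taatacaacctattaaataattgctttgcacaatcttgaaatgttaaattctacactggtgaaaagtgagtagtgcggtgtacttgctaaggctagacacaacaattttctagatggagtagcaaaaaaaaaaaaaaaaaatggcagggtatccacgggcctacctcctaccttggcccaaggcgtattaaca
zetaCOP: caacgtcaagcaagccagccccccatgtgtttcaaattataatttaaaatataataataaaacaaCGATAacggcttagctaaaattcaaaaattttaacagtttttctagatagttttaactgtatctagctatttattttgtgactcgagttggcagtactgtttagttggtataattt

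The members of the outer cage are alphaCOP, beta'COP and epsilonCOP. alphaCOP (FBgn0025725, chr3L:1641066-1645199, minus strand) encodes a subunit with WD40 propellers that reads the dilysine retrieval signals of cargo proteins. Its peak signal in replicates 1, 2 and 3 was 2293, 1507 and 1397, and in the IDR set it was 5157. Its summits lay 152, 149 and 148 bp upstream of the TSS in replicates 1, 2 and 3, so the 3 replicates placed them within 4 bp of each other. To set replicates side by side, each signal was divided by that replicate's median over the IDR peaks, which was 202, 105 and 142 for replicates 1, 2 and 3. On this relative scale alphaCOP had 11.3, 14.3 and 9.84, a mean of 11.8 ± 2.26 (SD, n = 3). Every replicate was thus far above its own median peak, and by the IDR signal alphaCOP and its neighbour at the same peak ranked 14th among protein-coding genes, with 99.9% of genes at or below it.

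epsilonCOP (FBgn0027496, chr2L:6489090-6490194, plus strand) encodes the small cage subunit, which stabilises alphaCOP in mammalian cells. Replicates 1, 2 and 3 gave peak signals of 888, 731 and 572, and the IDR set gave 2145, the 454th strongest summit. The relative signals were 4.39, 6.93 and 4.03, a mean of 5.12 ± 1.58 (SD, n = 3). This was the second highest level among the 7 genes, and its range did not overlap that of alphaCOP. Replicate 3 split the peak into 2 summits, at 221 bp upstream with a signal of 572 and at 19 bp upstream with 311, while replicates 1 and 2 had 1 summit each at 165 and 135 bp upstream.

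beta'COP (FBgn0025724, chr2L:13378902-13382382, plus strand) encodes the second propeller subunit of the cage, which also reads dilysine signals. The peak signals of replicates 1, 2 and 3 were 220.2, 189 and 202, and that of the IDR set was 609.5, the 2568th strongest summit. The relative signals were 1.09, 1.79 and 1.42, a mean of 1.43 ± 0.351 (SD, n = 3). The level was above that of the median IDR peak in every replicate, with 54.2%, 75.6% and 66.3% of the IDR peaks at or below it in replicates 1, 2 and 3, and below those of the other cage subunits. The summits lay 183, 146 and 206 bp upstream of the TSS, and replicates 2 and 3 added weak second summits of 34.9 and 24.8 at 58 and 2 bp inside the 5′ UTR.

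**Figure D1:**
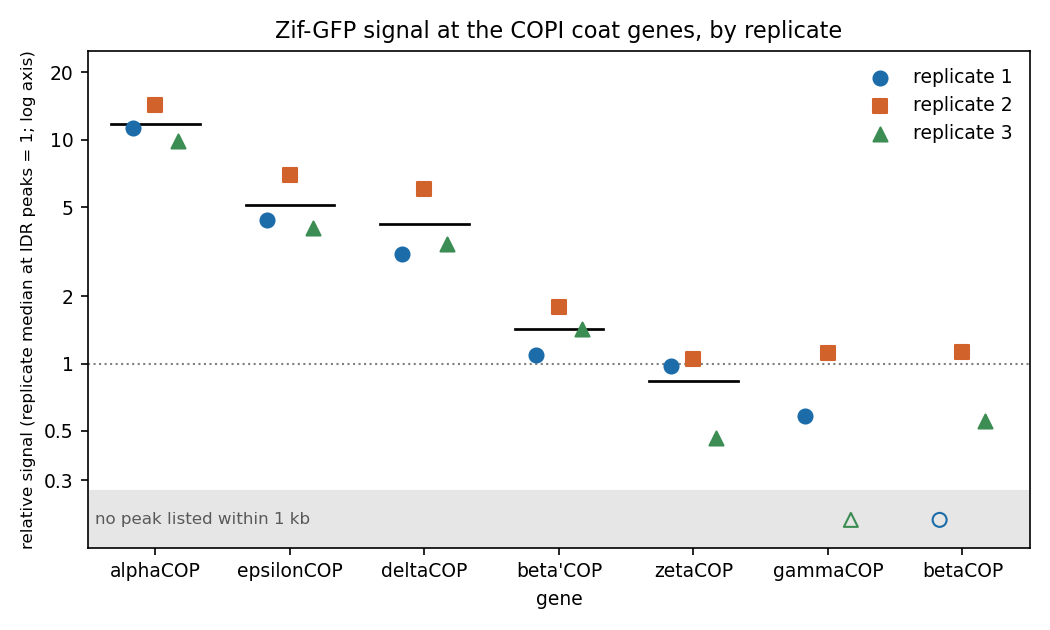
Peak signal at the 7 COPI coat genes in each replicate, divided by that replicate's median over the IDR peaks (log axis, dotted line at 1); horizontal bars are means over 3 replicates and open symbols on the grey band mark replicates with no peak within 1 kb. alphaCOP sits between 9.84 and 14.3, epsilonCOP and deltaCOP between 3.09 and 6.93, and the other 4 genes at or under 1.79, with replicate 2 the highest at every gene.

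The inner layer holds betaCOP, gammaCOP, deltaCOP and zetaCOP. deltaCOP (FBgn0028969, chrX:1859141-1861790, minus strand), the medium chain of the adaptor-like layer, had the highest level of these. Its strongest summit had a signal of 626 in replicate 1, 638 in replicate 2 and 488 in replicate 3, and 1742 in the IDR set, where it was the 655th strongest. The relative signals were 3.09, 6.05 and 3.44, a mean of 4.19 ± 1.62 (SD, n = 3), a range that overlapped that of epsilonCOP. Within each replicate epsilonCOP was nevertheless the higher, at 4.39, 6.93 and 4.03 in replicates 1, 2 and 3. deltaCOP was the only COPI gene with a second summit in the IDR set, 399 bp upstream of the TSS with a signal of 222. That second summit recurred with 189, 118 and 286 in replicates 1, 2 and 3, and it lay in a 3′ UTR exon of Gcna (chrX:1862009-1865835), a peptidase gene that ends 218 bp from the deltaCOP TSS.

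zetaCOP (FBgn0040512, chr3L:16671664-16673555, minus strand), the small chain of the inner layer, had a weaker peak. The signals of replicates 1, 2 and 3 were 198, 111 and 65.8, and that of the IDR set was 380.0, the 4665th strongest summit. The relative signals were 0.980, 1.05 and 0.463, a mean of 0.832 ± 0.321 (SD, n = 3). Replicate 3 was low: 7.7% of the IDR peaks had a signal at or below the zetaCOP value there, against 48.9% in replicate 1 and 52.0% in replicate 2. Its strongest summits lay 53 and 57 bp upstream of the first TSS in replicates 1 and 2. In replicate 3 the strongest summit was inside the gene, in a coding exon 54 bp past the second TSS, and a weaker one of 36.9 lay 131 bp upstream of the first TSS. The IDR interval was 218 bp wide, the smallest of the 5, but the intervals of replicates 1, 2 and 3 were 444, 530 and 510 bp wide.

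gammaCOP (FBgn0028968, chr3R:31572143-31575707, plus strand), a large chain whose appendage binds a GTPase-activating protein of Arf1 in mammals, had peaks in replicates 1 and 2. The signals were 119 in replicate 1 and 117 in replicate 2, with a second replicate 2 summit of 56.5. The strongest summits lay 113 and 224 bp upstream of the TSS, and the relative signals were 0.585 and 1.11. No gammaCOP peak was listed in replicate 3, whose weakest listed peak has a signal of 14.4, or in the pooled list.

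betaCOP (FBgn0008635, chrX:18381549-18385242, minus strand), the other large chain, had peaks in replicates 2 and 3. The signals were 119 in replicate 2 and 78.7 in replicate 3, at 52 and 61 bp upstream of the TSS, and the relative signals were 1.13 and 0.554. No betaCOP peak was listed in replicate 1, whose weakest listed peak has a signal of 18.7, or in the pooled list. A missing peak is not a value of 0, so no mean is given for gammaCOP or betaCOP. The order of the levels was therefore alphaCOP, epsilonCOP with deltaCOP, beta'COP, zetaCOP, and gammaCOP with betaCOP. epsilonCOP is grouped with deltaCOP because their ranges overlap, although epsilonCOP was the higher in each replicate. The ranges over replicates of alphaCOP and epsilonCOP, of deltaCOP and beta'COP, and of beta'COP and zetaCOP did not overlap, although the means of beta'COP and zetaCOP differed by less than their summed SDs. zetaCOP, gammaCOP and betaCOP could not be put in order beyond their spread.

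Counted by list, a summit lay within 1 kb of a TSS at 6 of 7 COPI genes in replicate 1, against 61.7% of all protein-coding genes. In replicate 2 it did at 7 of 7 COPI genes, against 63.9% of all, and in replicate 3 at 6 of 7, against 61.7% of all. All 3 replicates had one at 5 of 7 COPI genes, against 55.6% of all, and the pooled list had one at the same 5, against 60.9% of all. These shares belong to the lists that chose the genes and nothing is read from them. Replicate 2 gave the highest relative signal at 5 of the 5 COPI genes with an IDR summit, which it also did at 66.2% of the 6139 genes with an IDR summit and a peak in all replicates. For replicates 1, 2 and 3 the median relative signal of these 5 COPI genes was 3.09, 6.05 and 3.44, and over all 6139 genes it was 1.12, 1.41 and 1.10.

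The pooled list lacked betaCOP and gammaCOP although both had peaks with the largest −log10 q value of the list in 2 replicates. All 7 COPI genes had such a peak in at least 2 replicates, and 2 of these 7 had no pooled summit, against 1.46% of the 6981 protein-coding genes with such peaks. In replicate 2 the betaCOP and gammaCOP peaks were the 3639th and 3740th strongest of the list. Of the 4000 strongest peaks of replicate 2, 34 (0.850%) overlapped no pooled peak, and of the 4000 strongest of replicates 1 and 3 it was 6 and 8. At the other 5 COPI genes the pooled signal was 0.978 to 1.01 times the summed signals of the 3 replicates. The signals of the 2 replicates with a peak add up to 236 for gammaCOP and 198 for betaCOP, both above the weakest pooled signal of 34.1. They lie on either side of the weakest IDR signal of 204. These sums leave out the replicate with no listed peak, whose signal is unknown, so betaCOP cannot be placed below 204. The cause of the 2 missing pooled peaks was not tested.

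**Figure D2:**
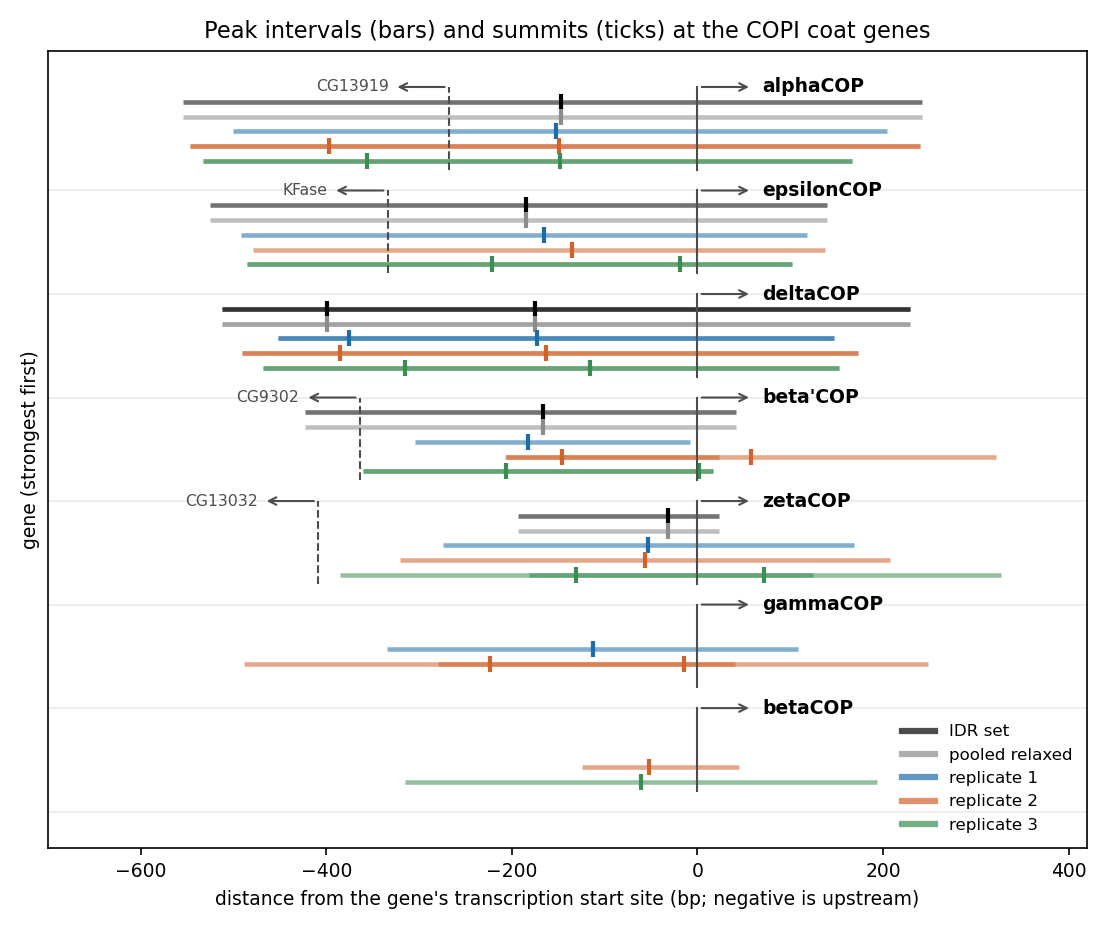
Peak intervals (bars) and summits (ticks) at each COPI coat gene in the IDR set, the pooled list and the 3 replicate lists, by distance from the TSS in bp (negative is upstream); bars that overlap in 1 list look darker, and dashed lines mark the TSS of a head-to-head neighbour. The 5 IDR peaks have their strongest summits 32 to 185 bp upstream, deltaCOP has a second one at 399 bp, and gammaCOP and betaCOP show bars for 2 replicates each.

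The peaks sat just upstream of the genes. The strongest IDR summits lay 147 bp (alphaCOP), 185 bp (epsilonCOP), 167 bp (beta'COP), 175 bp (deltaCOP) and 32 bp (zetaCOP) upstream of the TSS, a median of 167 bp. The strongest IDR summits of all 6216 protein-coding genes with one lay a median of 116 bp upstream, with quartiles at 217 and 43 bp. All 5 of these COPI summits were in intergenic sequence, while the second deltaCOP IDR summit was in the Gcna 3′ UTR. The intergenic share over all genes was not computed. At 88.2% of the 6216 genes the strongest IDR summit lay at or upstream of the TSS, as it did at all 5 COPI genes. The IDR intervals were 798 bp wide at alphaCOP, 666 bp at epsilonCOP, 466 bp at beta'COP, 742 bp at deltaCOP and 218 bp at zetaCOP, and the median over all genes with an IDR summit was 435 bp. The order by width was that by signal, except that deltaCOP was wider than epsilonCOP.

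The COPI gene bodies were also searched for summits more than 1 kb from a TSS. Little of epsilonCOP, which is 1105 bp long, lies past that limit, and zetaCOP is also short at 1892 bp. The counts were not set against all protein-coding genes or against gene length, so nothing is read from them. Within the gene bodies the IDR set had no summit. Replicate 2 listed 3 weak ones in coding exons of alphaCOP, with signals of 21.9, 16.3 and 13.7 that neither other replicate had. deltaCOP had 1 in its 3′ UTR with a signal of 54.9 in replicate 1 and 39.8 in the pooled list. The farthest promoter summit, 399 bp from the deltaCOP TSS, was well inside the 1 kb limit. Just outside the region searched, IDR summits lay 86 bp past the 3′ end of deltaCOP (signal 351), 171 bp past that of beta'COP (339) and 753 bp past that of epsilonCOP (1846). Another lay 1313 bp beyond the upstream limit of alphaCOP (3376), and around gammaCOP, zetaCOP and betaCOP the nearest was 4189, 9607 and 10658 bp away.

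Of the 7 COPI genes, 4 faced a divergently transcribed protein-coding gene whose TSS lay within 1 kb upstream, and their peaks stood between both start sites. alphaCOP shared its peak with CG13919 across a gap of 267 bp, with the summit 121 bp upstream of the CG13919 TSS. epsilonCOP shared with KFase, which encodes kynurenine formamidase, across 333 bp, with the summit 149 bp upstream of KFase. beta'COP shared with CG9302 across 363 bp, with the summit 197 bp upstream of CG9302, and zetaCOP with CG13032 across 408 bp, with the summit 377 bp upstream of CG13032. A peak in such a gap cannot be assigned to 1 of the 2 genes. Only the zetaCOP summit was much closer to the COPI gene than to its neighbour, and the other 3 were near the middle of the gap.

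All 4 COPI genes with a divergent neighbour had an IDR summit, and over all 5052 protein-coding genes with one the share was 74.1%. Of the 3 COPI genes without such a neighbour only deltaCOP had an IDR summit, and over all 8893 such genes the share was 27.8%. The 2 genes absent from the IDR set, betaCOP and gammaCOP, thus both lacked a divergent neighbour. The part of promoter arrangement in the COPI levels was not tested.

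**Figure D3:**
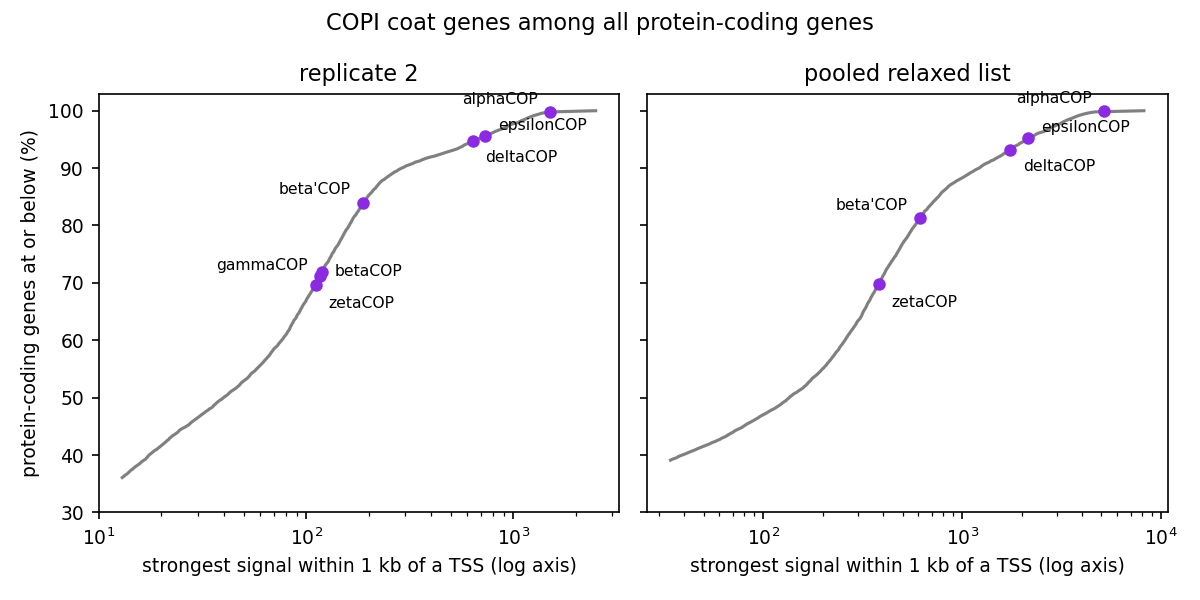
Share of the 13945 protein-coding genes (y axis, starting at 30%) whose strongest peak within 1 kb of a TSS is at or below a given signal (x axis, log) in replicate 2 and in the pooled list, with the COPI coat genes as purple points. In replicate 2 all 7 genes have a peak, with betaCOP, gammaCOP and zetaCOP between 69.6% and 71.9%, and in the pooled list the 5 genes with a peak run from 69.9% (zetaCOP) to 99.9% (alphaCOP).

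Set among all genes by the IDR signal, epsilonCOP stood at 95.2% of genes at or below it, deltaCOP at 93.2%, beta'COP at 81.3% and zetaCOP at 69.9%. The 5 COPI genes with an IDR summit had a median signal of 1742, against 520 for all 6216 genes with one (quartiles 336 and 1061). alphaCOP, epsilonCOP and deltaCOP were above the upper quartile, beta'COP and zetaCOP within the quartiles. The genes whose 3 relative signals were most like those of alphaCOP, by Euclidean distance on the log2 scale over the 3 replicates among 6125 genes, were Lon and PIG-F, which share a peak, and Fancm. Lon, which encodes a mitochondrial protease, and PIG-F, of the pathway that makes GPI anchors, had 10.2, 12.8 and 9.80 in replicates 1, 2 and 3. Fancm, a DNA repair helicase, had 10.3, 15.7 and 8.86. Their summits, which the choice did not use, lay 133, 123 and 244 bp upstream of the TSS.

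The motifs were searched on both strands within 100 bp of each summit, a window of 201 bp, and the same window was read at 5498 IDR summits near protein-coding TSSs. For the promoters of all 13945 protein-coding genes, the 201 bp that end at the most upstream TSS were read. These promoter windows thus leave out the gene past its TSS, which summit windows can include. TATAAA was in 4 of the 7 COPI windows (alphaCOP, beta'COP, epsilonCOP and gammaCOP), against 36.4% of IDR windows and 37.0% of promoters. These matches lay 122 to 314 bp upstream of the TSS, in stretches rich in A and T. CGATA was in 2 (gammaCOP and zetaCOP), against 43.8% and 38.4%, and in gammaCOP it occurred 3 times, 2 of them inside the palindromic TATCGATA. TATCGATA itself was in the window of gammaCOP only, against 11.1% and 7.39%. beta'COP had 1 just outside its window, 116 bp from the summit and 52 bp upstream of the TSS. The gammaCOP window is that of its replicate 2 summit, and its matches lay 246 to 314 bp upstream of the TSS. None of these is within 100 bp of the replicate 1 summit, 113 bp upstream, so the gammaCOP matches depend on the replicate used.

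Each of the other listed motifs was in at most 1 COPI window. GGTCACAC, the core of motif 1, was in that of betaCOP, 28 bp inside the gene and so not in the printed stretch, against 8.55% of IDR windows and 3.74% of promoters. GAGAG was in that of alphaCOP, against 17.2% and 22.2%, and CAGCTG in that of beta'COP, against 13.1% and 11.6%. CAGGTAG, the site of Zelda, was in none, against 0.618% and 1.15%. The deltaCOP window held no listed motif at all. A match is a run of letters and not a measured site of any factor.

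One more word was added after the data were seen. Runs of 7 letters were ranked by their excess in the 600 strongest IDR windows over the count expected from all promoters. The excess was divided by the square root of the expected count. AGTGTTG ranked first, in 255 of the 600 windows (42.5%) against 4.93% of promoters. The alphaCOP and epsilonCOP peaks are among those 600, so the word was chosen partly on them. epsilonCOP held it 95 bp from its summit, as CAACACT on the printed strand. alphaCOP held it 122 bp from its summit and 25 bp before its TSS, outside the 201 bp window but inside a window of 299 bp. With the wider window 2 of the 7 COPI genes had it, against 50.3% of the 600 strongest windows, 13.7% of IDR windows and 6.66% of promoters. deltaCOP, the third strongest COPI gene, did not have it in either window.

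The GC content of the 201 bp window was 28.9% at alphaCOP, 23.9% at beta'COP, 24.4% at epsilonCOP, 32.3% at gammaCOP, 31.3% at deltaCOP and 31.8% at zetaCOP. All of these were below the median of 34.8% at IDR windows and of 37.3% at promoters. betaCOP was the exception with 56.2%. The values are for the whole window, of which the printed stretches leave out any transcribed part.

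Other genes of the secretory pathway were counted by the same rule, from lists of 66 genes in 7 groups. Together 57 of the 66 (86.4%) had an IDR summit within 1 kb of a TSS, beside 5 of 7 COPI genes (71.4%) and 44.6% of all protein-coding genes. CHOp24 and rb, divergent neighbours in different lists, share 1 peak (411), which counts for both. A divergent neighbour was present at 45 of these 66 genes, at 4 of 7 COPI genes and at 5052 of all 13945 protein-coding genes. The COPI regulators and cargo receptors had a summit at 10 of 13 genes. The strongest were at garz, the exchange factor that loads Arf1 with GTP (3987), and bai, a p24 cargo receptor (3170), and Arf1 itself, named after its value was seen, had 264. The Dsl1 tether and the SNAREs on which COPI vesicles dock at the endoplasmic reticulum had 6 of 6, with Syx18 (3181) and Sec20 (2977) the strongest.

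The COPII coat, which works in the opposite direction, had a summit at 8 of 8 genes with moderate signals, the highest at Sec23 (836) and Sar1 (650.5). The COG tether had 6 of 8, led by Cog3 (3155) and Cog8 (2136), and the Golgi SNAREs 8 of 8, led by Vti1b (2890) and Membrin (753). Within 500 bp of a TSS the Golgi SNAREs had 6 of 8, and the counts of the other lists were unchanged. Together 55 of the 66 genes had a summit within 500 bp, against 41.0% of all protein-coding genes. Golgins, the tethering coiled coils of the Golgi, had 6 of 10, led by Golgin97 (1590) and Tmf (711). Clathrin and its adaptors, whose core the inner COPI layer resembles, had 13 of 13, led by AP-1mu (2940) and AP-2sigma (1753). Of the genes named as strongest in these lists, all but Sar1 and Cog8 have a divergent neighbour. Their peaks therefore cannot be assigned to a single gene. The alphaCOP signal of 5157 was above that of every one of these 66 genes. The signals ran from 380.0 to 5157 over the 5 COPI genes with a summit and from 322 to 836 over the 8 genes of the COPII list, which also holds Sar1, Sec16 and Tango1, proteins that act with that coat.

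**Figure D4:**
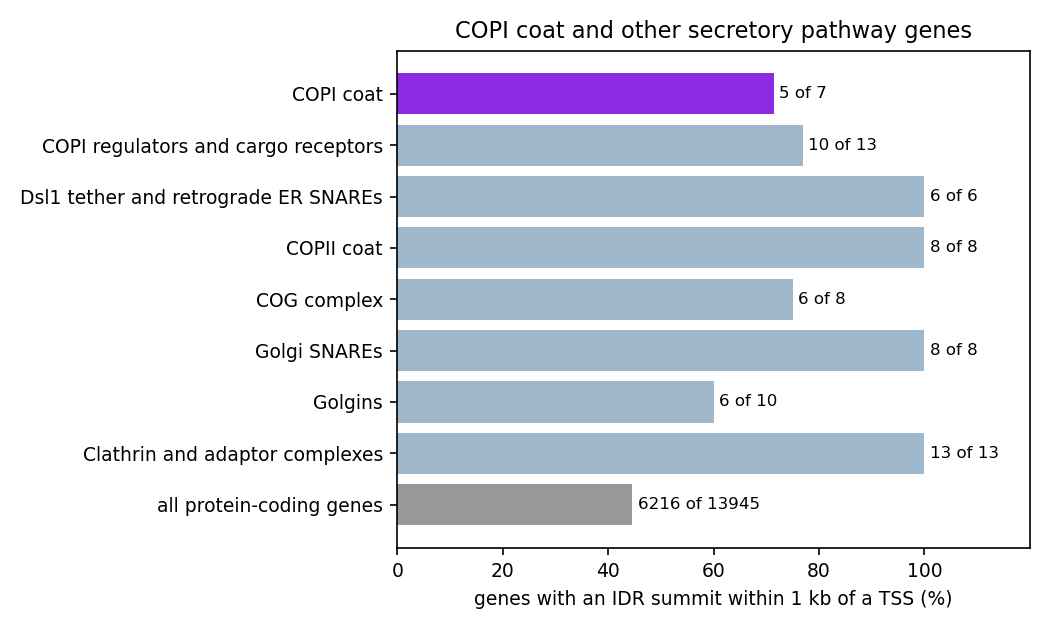
Share of genes with an IDR summit within 1 kb of a TSS (x axis, %) in the COPI coat, in 7 other lists of secretory pathway genes and among all protein-coding genes, with the counts beside each bar. The COPI coat has 5 of 7, 4 lists have a summit at every gene, golgins have 6 of 10, and all genes have 6216 of 13945.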

How the data were processed

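Peak lists of 3 biological replicates were used, with the authors' pooled list and IDR set. Per the labels, coordinates are dm6. For the aligner, the peak caller and the threshold on the IDR, names and versions were not given in the sources used here. Signal is the deposited enrichment value of a peak and was used as it stands. The deposited −log10 q value, capped at the same maximum for all 8630 IDR summits, marked peaks at that maximum. Per the file records the pooled list came from replicates 2 and 3, but at 7502 IDR peaks its signal over the sum of all 3 replicates had a median of 0.991, against 1.82 over the sum of replicates 2 and 3. The pooled list and the IDR set were therefore treated as resting on replicate 1 too. This ratio concerns signals only and does not show which replicates the IDR selection compared. Each relaxed list is limited to 30000 summits, so a gene can be occupied and have no listed peak. Nothing in the labels ties a replicate to a batch.

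Genes and TSSs of all transcripts came from Ensembl release 115 (dm6), and sequences from RefSeq Release 6. A gene was counted when a summit lay within 1 kb of a TSS, and the strongest such summit gave its signal. No test was run. The members, gene lists and motifs were chosen with earlier results of these data known. Of the 66 pathway symbols 63 matched exactly and 3 by synonym (Arf79F as Arf1, TMF as Tmf, GMAP as Gmap). The text names all 7 COPI genes, genes that share their summits, up to 2 genes with the strongest IDR peak of each list, and the 3 genes most like alphaCOP. Arf1, Gcna, CHOp24, rb and the COPII genes Sec16 and Tango1 are named outside this rule. The matching of peaks to genes was tested on simulated data. Python 3.11.15, numpy 2.4.6, pandas 2.3.3 and matplotlib 3.10.9 were used.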

Additional observations from a re-analysis of the deposited data

How the results depend on the processing

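The number of COPI genes with an IDR summit within 1 kb of a TSS was 5 with windows of 500 bp (41.0% of all protein-coding genes) and 200 bp (33.2%), with any overlap of the interval (45.5%), and with the most upstream TSS only (43.0%). It was 4 among the 4315 strongest IDR summits, without zetaCOP, against 28.4% of all protein-coding genes. Taking the 8630 strongest peaks of 1 replicate in place of the IDR set gave 6, 7 and 5 genes for replicates 1, 2 and 3 (43.3%, 46.9% and 41.2% of all genes), and the 5 of replicate 3 held betaCOP and not zetaCOP. With 1 replicate left out, an IDR summit that each remaining replicate overlapped with a peak of that strength was found at 4 to 5 genes (38.3% to 40.2% of all genes). This count cannot gain betaCOP or gammaCOP, since the IDR set itself was kept and not selected again from the remaining replicates. zetaCOP, the 9389th strongest peak of replicate 3, was the gene lost without replicate 1 or replicate 2. The number of COPI genes with a peak in all replicates was 5, and 5 to 6 with 1 replicate left out (57.5% to 57.8% of all genes). COPI summits in the IDR set numbered 6, and 4 to 6 under the alternatives. The median relative signal of the 5 COPI genes was 4.19, and 3.27 to 4.74 with 1 replicate left out. It was 16.6 when signals were divided by the median of the whole relaxed list, a lower divisor that changes the scale. Ranking signals among the IDR peaks left 5 COPI genes in their places and exchanged betaCOP and gammaCOP, 7th and 6th by mean level with a missing peak set to 0. All 3 replicates belong to 1 group, so there were no groups to pair. Genes measured in the same replicates were compared by description only. The lists carry no read counts, so the precision of each value cannot be given, and 3 samples are too few for a search for outlying replicates.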
